A study of Arabidopsis thaliana with 16 samples.

Results

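Class III peroxidases are a large family of secreted plant haem enzymes, and the table of estimated gene counts analysed here holds 75 genes described as a peroxidase or probable peroxidase among 27655 genes, or 0.271% of the table. Members were taken by the opening word of the deposited description, with no use of their values. Of the 75 members, 16 had enough counts to be tested, among 17083 genes in all. Another 42 members were counted in at least 1 library but did not pass, and 17 had 0 counts in all 16 libraries.

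RNA came from whole Arabidopsis seeds of the wild-type ecotype Col-0 that were germinating. The seeds had soaked for 3 days at 4 °C and then stood at 22 °C under constant light on ½ MS, a diluted mineral medium for plant culture. From 24 to 30 hours after imbibition, 6 hours in all, they lay in the liquid form of this medium with 60 mM glucose, with 5 µM abscisic acid (ABA), or with both. A control group has no added compound in its labels, and no osmotic control for glucose is among the 4 groups. There are 4 biological replicates in each group, per the labels, all of 1 genotype and age.

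Class III peroxidases use hydrogen peroxide to oxidise phenolic compounds in the cell wall, which cross-links wall polymers and joins monolignols into lignin. The same enzymes can also make reactive oxygen species, which cleave wall polysaccharides and loosen the wall. In germinating seeds, wall loosening in the embryo axis and the endosperm precedes emergence of the root, and ABA delays this step while glucose at higher supply slows seedling establishment. NADPH oxidases of the plasma membrane supply the superoxide from which the hydrogen peroxide is formed, and laccases oxidise monolignols with oxygen instead of hydrogen peroxide.

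The description was checked against the RefSeq annotation of the TAIR10.1 assembly, in which 73 of the 75 members carry a haem peroxidase note. The 2 without it are AT5G14110, whose description names a domain of unknown function, and AT5G40153. AT5G40153 lies within PER63 on the opposite strand over 288 bases, so that reads of the 2 genes cannot be told apart unless strand was used, which is not given in the sources used here. AT5G14110 was tested and is named by its identifier throughout, and the family counts are also given without it. No other tested member lies over another gene by more than 26 bases, the overlap of PER26 with a gene on the opposite strand. Among tested members, PER37 is 93.5% identical to the untested PER38 over 1148 bases of transcript, and PER51 is 89.8% identical to the untested PER50 over 1222 bases. PER38 was estimated at 0 to 2 counts per library and PER50 at 0 to 1, so the split of reads within each pair is uncertain.

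Library totals ran from 9360552 to 17794685 counts, and a gene with 0 counts may still have a level of up to 3 counts, which equals 0.169 to 0.32 CPM, the counts scaled to a common library total. Replicates of a group correlated across genes at r of 0.9823 to 0.9946. The seed label was checked with genes of the glyoxylate cycle and of storage protein. Isocitrate lyase, ICL, stood at 23679 CPM ± 810 (SD, n = 4) in control, and its 4 group means lay between 23459 and 24587 CPM. The cruciferin gene CRA1 rose from 106 CPM in control to 1770 CPM with ABA. Of 7 root hair markers, EXPA7, EXPA18 and PRP3 had 0 counts in all libraries and only RHD6 was tested.

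Control replicate 1 stood apart from the other 15 libraries in this family. It held counts of 48 members, against 22 to 31 in the others. In it, 14 members were counted that had 0 counts in every other library, with 117 counts among them. PER22 had 22 counts there, PER39 had 20, PER59 had 16, PER21 had 14, PER23 had 13, PER15 and PER49 had 8 each, PER25 had 6 and PER10 had 5. PER11, PER27, PER53, PER61 and PER64 had 1 count each. PER22 and PER23 are 88.7% identical over 1235 bases of transcript, so their 2 counts may share reads. Of the 36 genes with at least 5 counts in control replicate 1 and 0 elsewhere, 9 were members, or 25%, while members are 0.271% of all genes. All genes include the many with counts in several libraries, which could not be among the 36. The family was chosen with earlier results of these data known, so these shares are a description and not a test. The other 15 libraries together held 5 such genes, none of them a member. The largest of the 36 was ATDR4 with 241 counts, and the laccase LAC3 was among them with 5.

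**Figure D1:**
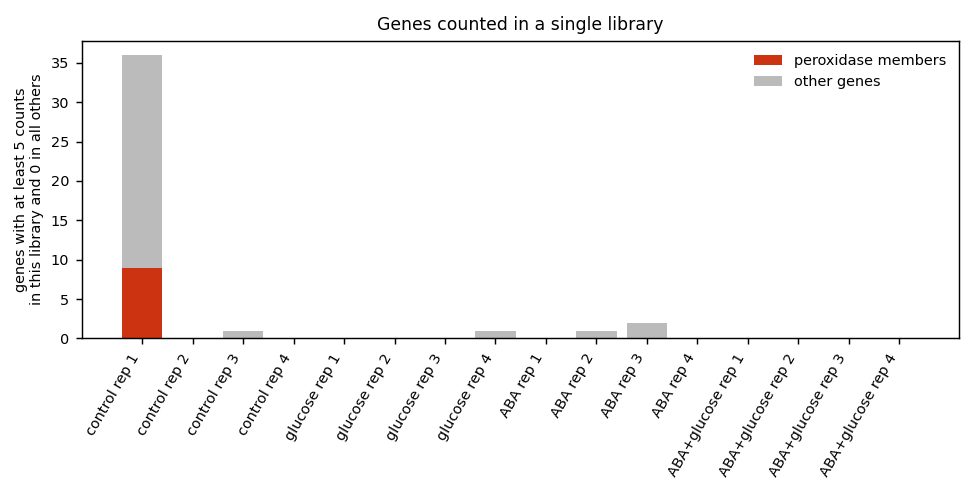
Genes with at least 5 counts in 1 library and 0 counts in the other 15, by library, with peroxidase members in red and other genes in grey. Control replicate 1 holds 36 such genes, 9 of them members, and no other library holds more than 2.

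Of these 14 members, PER25 is known from lignin formation in stems, and PER64, with 1 count, from the Casparian strip of the root endodermis. No tissue is named here for the rest of the 14. Of 26 untested members counted in more than 1 library, 6 were higher in control replicate 1 than in any other library, 7 equalled the highest of the others and 13 lay below it. Among the 6, PER3, known as RCI3 from cold-treated roots, had 8 counts there and 0 to 1 in the others, PER32 had 14 against 0 to 4, PER34 had 9 against 0 to 6, and PER30 had 20 against 0 to 11. The summed level of the 59 untested members was 15.5 CPM in control replicate 1 and 1.41 to 3.07 CPM in the other 15 libraries. The summed level of the 7 root hair markers in it was 14.9 CPM, within the 12.9 to 16.4 CPM of the control libraries. RHD6 made up 14.7 CPM of that sum. The 4 markers of green tissue summed to 1962 CPM in control replicate 1 and 1960.1 CPM in control replicate 3. RBCS1A made up 1833 CPM of either sum. The scarce LHCB2.1 had 20 counts in control replicate 1 and 0 to 6 in the other libraries, and LHCB1.1 had 8 against 0 to 5. The part of other tissue in these counts was not tested. PER7 was counted once in ABA replicate 4 alone, and PER35 once in ABA plus glucose replicate 4 alone. Results against control are therefore given with and without control replicate 1.

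Peroxidase transcripts in these seeds came from few genes. Levels between genes were compared on the deposited per-length column, headed TPM and treated as a signal of unknown scaling. On that scale PER42, PER62, PER69, PER31, PER17 and PER46 had the highest means over the 16 libraries, and these 6 made up 80.9% to 84.9% of the summed member signal in every library. PER42, also called PRXR1, had a mean signal of 53.8, PER62 of 43.2 and PER69 of 29.6, followed by PER31 at 25.5, PER17 at 21.2 and PER46 at 14.7. The next member was PER16 at 8.55, and PER51, the lowest tested member, stood at 0.823.

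The order of the leading genes differed between groups. PER62 held the first place in control with 24.0% ± 1.29 of the summed per-length signal (SD, n = 4), ahead of PER42 with 19.1% ± 1.55 and PER69 with 17.7% ± 1.37. The ranges of PER42 and PER69 in control overlapped, at 18% to 21.4% and 16.3% to 19.5%. PER42 was first in all 3 treated groups, with 31.2% ± 1.38 in ABA plus glucose. In that group PER62 held 12.3% ± 1.22, the third place, and PER69 held 6.82% ± 0.716, the sixth. A share can move because its own gene moves or because the others do, so the changes below are given on the CPM scale.

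**Figure D2:**
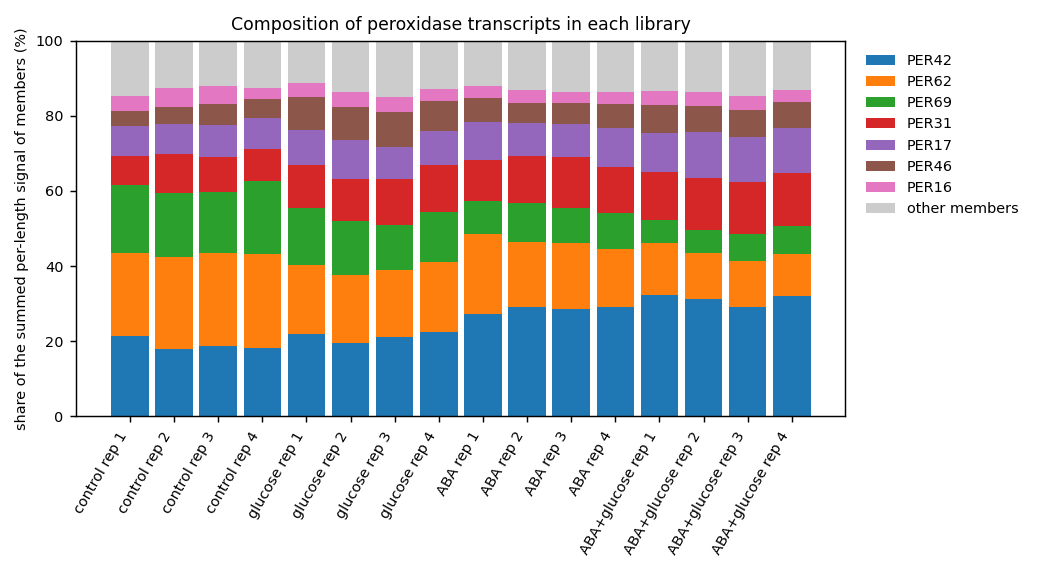
Share of the summed per-length signal of the 75 members held by the 7 leading members and by the rest, in percent, for each of the 16 libraries. The share of PER62 and PER69 is largest in the control libraries and smallest with ABA plus glucose, where PER42 holds 29.2% to 32.2%.

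The summed CPM of all members was 305 to 391 in control, 243 to 269 with glucose, 184 to 202 with ABA and 180 to 184 with ABA plus glucose. The control, glucose and ABA ranges did not overlap, while the ABA range began within the ABA plus glucose range. The highest control value, 391, was control replicate 1, and the other 3 control libraries lay between 305 and 329. In bulk seed RNA, fewer cells of a type and less RNA per cell cannot be told apart.

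**Figure D3:**
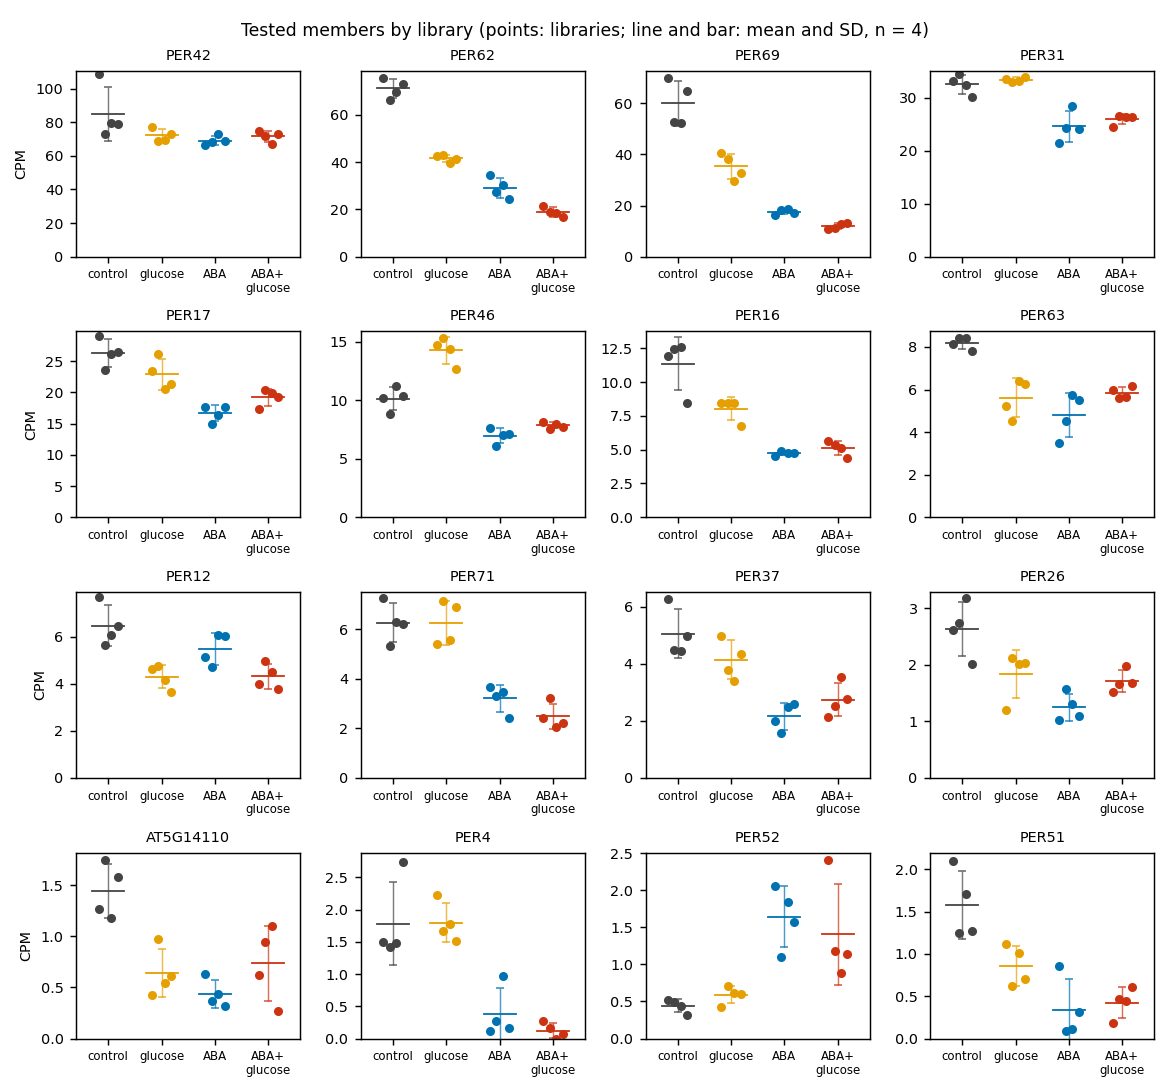
Levels of the 16 tested members in CPM, with 1 point for each library and the mean and SD of each group of 4. Most members are lower in the ABA and ABA plus glucose libraries than in control, PER46 is highest with glucose, and PER52 is higher in all 8 libraries that received ABA than in the other 8.

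The first comparison asks which members respond to ABA alone. With ABA, 14 of the 16 tested members were called lower than in control and 1 higher at an adjusted p under 0.05, where 18% of all tested genes were called lower and 16.1% higher. The test throughout is the quasi-likelihood test of edgeR with Benjamini-Hochberg adjustment over all 17083 genes. The median log2 fold change of the members was -1.04, and the median of all tested genes was 0.00. Of the 14, 8 were lower by at least 2-fold. The share of all tested genes at that fold is not given, here or for the 2-fold counts below. Without control replicate 1, 13 members were called lower, beside 16.2% of all genes, and without AT5G14110 the count was 13 of 15. PER51, PER4 and AT5G14110 reach the count filter only through groups without ABA, and PER52 only through groups with it, so these 4 entered the test through the groups where they were high. The other 12 tested members had at least 10 counts in every library, and of these 11 were called lower, 5 of them by at least 2-fold. The share among all genes with at least 10 counts in every library is not given. The counts for these 12 members, here and below, thus have no matching background.

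PER62, PER69, PER16 and PER71 are members that have been studied with mutants in germinating seeds or growing cells, PER62 and PER69 also in root hairs. PER62 stood at 75.8, 66.2, 69.5 and 73.2 CPM in control replicates 1 to 4 and at 34.3, 27.4, 30.3 and 24.4 CPM in the ABA replicates. The groups were far from overlapping, and PER62 fell by 1.28 ± 0.09 on the log2 scale (SE, n = 4 a group; edgeR adjusted p = 6.03e-11). PER69 stood at 69.9, 52.8, 52.5 and 64.9 CPM in control and at 16.4, 18.3, 18.5 and 17.2 CPM with ABA. All 4 ABA libraries lay close together below every control library, and PER69 fell by 1.77 ± 0.11 on the log2 scale (edgeR adjusted p = 6.77e-12).

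PER16 had 12.0, 12.5, 12.6 and 8.46 CPM in control and 4.57, 4.89, 4.76 and 4.78 CPM with ABA. Control replicate 4 was low among the controls but above every ABA library, and the fall was 1.28 ± 0.13 (log2, edgeR adjusted p = 4.15e-08). PER71, linked to cell expansion and to wall lignin, had 7.25, 5.32, 6.29 and 6.24 CPM in control and 3.66, 3.32, 3.47 and 2.43 CPM with ABA. These groups did not overlap either, and PER71 fell by 0.96 ± 0.16 on the log2 scale (edgeR adjusted p = 6.43e-05). PER4, a lignin-related member also studied in germinating seeds, was scarce, with 20, 17, 20 and 26 counts in control and 2, 3, 9 and 2 counts with ABA. Its fitted change was -2.39 ± 0.45 (log2, edgeR adjusted p = 0.000209), and it was -3.27 without ABA replicate 3, the library with 9 counts.

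PER52 was the 1 member called higher with ABA. It takes part in lignin formation in the stem. It had 7, 6, 6 and 3 counts in control and 36, 12, 17 and 20 counts with ABA, or 0.446 CPM ± 0.0919 and 1.64 CPM ± 0.41 (SD, n = 4). Every ABA library lay above every control library, and the rise was 1.86 ± 0.34 on the log2 scale (edgeR adjusted p = 0.000183). A limma fit to log2 of the per-length signal plus 0.5 gave smaller changes for the scarce members with ABA, 1.20 for PER52, -1.48 for PER4 and -1.32 for PER51, each also called. PER17, another lignin-related member that acts in stems and in fruit opening, went the other way. It had 29.1, 23.6, 26.2 and 26.5 CPM in control and 17.7, 14.9, 16.4 and 17.7 CPM with ABA, without overlap, and fell by 0.65 ± 0.09 (log2, edgeR adjusted p = 4.79e-06).

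PER37, known from reduced growth of plants that overexpress it, had 5.04 CPM ± 0.856 in control and 2.16 CPM ± 0.472 with ABA. It fell by 1.23 ± 0.19 on the log2 scale (edgeR adjusted p = 2.37e-05), with the uncertainty of its near copy PER38. PER26 fell by 1.12 ± 0.22 and PER63 by 0.81 ± 0.14. PER46 fell by 0.53 ± 0.10 and PER31 by 0.42 ± 0.08, in each case with no overlap between the 4 control and 4 ABA libraries. PER51 changed by -1.94 ± 0.41 from 12 to 28 counts in control to 1 to 15 with ABA, and by -3.05 without ABA replicate 1, the library with 15 counts. AT5G14110 changed by -1.63 ± 0.36, from 15 to 21 counts to 4 to 11.

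PER42, the most abundant member over all libraries, was called lower by 0.30 ± 0.09 on the log2 scale (edgeR adjusted p = 0.0113), but this rested on control replicate 1. That library had 109 CPM, the other 3 control libraries had 73.0 to 79.5 CPM, and the 4 ABA libraries had 66.2 to 73.1 CPM. Without control replicate 1 the change was -0.15 and the call was lost (edgeR adjusted p = 0.0695). PER12 was the 1 tested member not called in either direction, at 6.47 CPM ± 0.882 in control and 5.49 CPM ± 0.677 with ABA (log2 -0.25 ± 0.13, edgeR adjusted p = 0.164). PER19 lay just below the count filter, with 14, 8, 13 and 9 counts in control and 3 to 6 counts with ABA. It was called lower with ABA when the filter was left out (log2 -1.23, edgeR adjusted p = 0.0177). In that fit it was also called lower with glucose (log2 -1.53, edgeR adjusted p = 0.0164) and with ABA plus glucose (log2 -1.44, edgeR adjusted p = 0.00815). PER22, PER39 and PER59 were called lower with ABA in that fit as well, on counts from control replicate 1 alone.

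**Figure D4:**
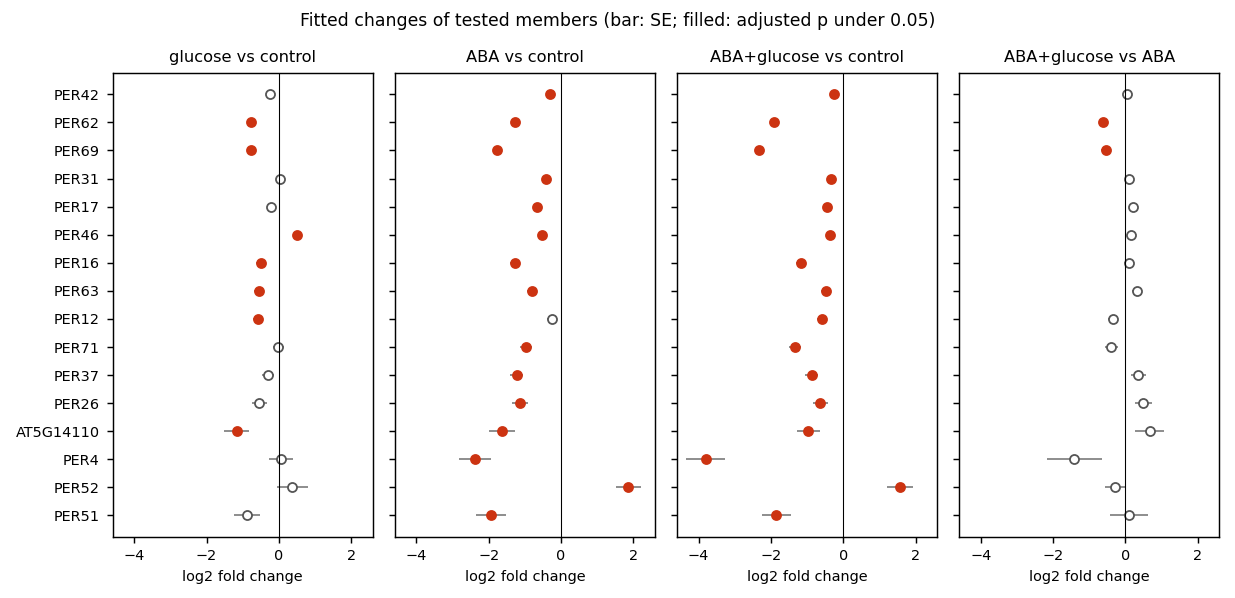
Fitted log2 fold change of each tested member with its SE in 4 comparisons, ordered by mean per-length signal; filled points have an adjusted p under 0.05. With ABA and with ABA plus glucose the filled points lie below 0 except that of PER52. Adding glucose to ABA moved PER62 and PER69.

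With glucose alone, 6 of the 16 tested members were called lower and 1 higher, where 7.49% of all tested genes were called lower and 3.85% higher. The median log2 fold change of the members was -0.40, against -0.01 for all tested genes. Leaving out control replicate 1 also gave 6 lower, beside 5.71% of all genes, and without AT5G14110 the count was 5 of 15. Of the 12 members with at least 10 counts in every library, 5 were called lower and 1 higher. PER62 had 42.7, 42.8, 39.5 and 41.3 CPM with glucose, all below the control range of 66.2 to 75.8 CPM, and fell by 0.78 ± 0.09 (log2, edgeR adjusted p = 3.21e-06). PER69 had 40.4, 38.4, 29.6 and 32.8 CPM, all below the lowest control library at 52.5 CPM, and fell by 0.76 ± 0.10 (edgeR adjusted p = 2.39e-05). Both genes thus stood between their control and ABA levels, with no overlap on either side.

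PER46 was the member called higher with glucose. It had 10.2, 8.81, 11.3 and 10.4 CPM in control and 14.7, 15.4, 14.4 and 12.7 CPM with glucose. All 4 glucose libraries lay above all controls, and the rise was 0.49 ± 0.09 on the log2 scale (edgeR adjusted p = 0.00142). The same gene was called lower with ABA, so its 2 single treatments went in opposite directions from the shared control libraries.

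PER16 fell by 0.51 ± 0.12 with glucose (edgeR adjusted p = 0.00739), with an overlap made by control replicate 4, whose 8.46 CPM lay within the 6.78 to 8.48 CPM of the glucose libraries. PER12, not called with ABA, fell by 0.58 ± 0.14 to 4.3 CPM ± 0.506 (edgeR adjusted p = 0.00849). PER63 fell by 0.55 ± 0.14 (edgeR adjusted p = 0.0113), and without glucose replicate 2 its call was lost at -0.46 (edgeR adjusted p = 0.0539). AT5G14110 was called lower (log2 -1.16 ± 0.34), but 5 to 11 counts in the glucose libraries stood behind it. That call was lost without control replicate 2 or 4 or without glucose replicate 1, 3 or 4, with edgeR adjusted p of 0.0661 to 0.0979 in those fits. PER71 had 6.27 CPM ± 0.787 in control and 6.25 CPM ± 0.894 with glucose, a log2 difference of -0.02 ± 0.15 that was not called. PER4 had 15 to 26 counts with glucose and 17 to 26 in control, and PER31 differed by 0.03 ± 0.07 on the log2 scale, neither called. PER42 differed by -0.24 ± 0.09 (edgeR adjusted p = 0.0898), and was not called. The difference was -0.09 without control replicate 1 (edgeR adjusted p = 0.416) and -0.30 without control replicate 2, where it was called (edgeR adjusted p = 0.0384).

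With ABA plus glucose against control, 15 of the 16 tested members were called lower and 1 higher, where 14.1% of all tested genes were called lower and 11.2% higher. The median log2 fold change of the members was -0.75, against 0.01 for all tested genes, and 6 of the 15 were lower by at least 2-fold. Of the 12 members with at least 10 counts in every library, 12 were called lower, 4 of them by at least 2-fold. Without control replicate 1, 14 members were called lower, beside 13% of all genes, and without AT5G14110 the count was 14 of 15. PER62 was at 21.6, 19.0, 18.5 and 16.7 CPM with both compounds, below every library of the other 3 groups, and fell by 1.91 ± 0.09 from control (log2, edgeR adjusted p = 1.75e-13). PER69 was at 10.9, 11, 12.7 and 13.2 CPM, also below all other libraries, and fell by 2.32 ± 0.11 (edgeR adjusted p = 1.96e-13).

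PER4 had 3, 2, 0 and 1 counts with both compounds, at or under 3 counts in every library, against 17 to 26 in control. Its fitted change of -3.80 ± 0.54 (log2, edgeR adjusted p = 1.07e-05) depends on how counts near 0 are treated. The limma fit to the per-length signal gave -1.94 for PER4, 0.97 for PER52 and -1.15 for PER51 in this comparison. PER71 fell by 1.35 ± 0.17 and PER16 by 1.17 ± 0.13. PER37 fell by 0.87 ± 0.18, PER17 by 0.45 ± 0.09, PER31 by 0.33 ± 0.07 and PER46 by 0.37 ± 0.10, all without overlap. PER12 fell by 0.59 ± 0.14 and PER63 by 0.49 ± 0.13. PER52 rose by 1.57 ± 0.35 to 27, 15, 12 and 17 counts (edgeR adjusted p = 0.0019), above all control libraries. PER51 changed by -1.85 ± 0.40, with 2 to 9 counts left.

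The calls of PER42, PER26 and AT5G14110 in that comparison depended on single libraries. PER42 changed by -0.25 ± 0.09 (edgeR adjusted p = 0.0429), and by -0.10 without control replicate 1 (edgeR adjusted p = 0.255). Its call was also lost on leaving out any 1 of the 4 ABA plus glucose libraries. PER26 changed by -0.63 ± 0.20 (edgeR adjusted p = 0.0255), and its call was lost without control replicate 2 or 3 or without ABA plus glucose replicate 1, 2 or 4, with a log2 change of -0.53 to -0.62. AT5G14110 changed by -0.97 ± 0.32 (edgeR adjusted p = 0.0315), a call lost without control replicate 2 or 4 or ABA plus glucose replicate 1 or 4, with a log2 change of -0.66 to -0.92. The 3 comparisons against control share the 4 control libraries, so their values are set side by side here and not taken as independent.

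The next comparison asks what glucose added to seeds that also received ABA. Against ABA alone, 2 of the 16 tested members were called lower with ABA plus glucose and 0 higher, where 3.24% of all tested genes were called lower and 1.16% higher. Without adjustment, 6 members had p under 0.05 in the edgeR test. The share of all tested genes at that unadjusted threshold is not given, so this count has no background beside it. The 2 were PER62 and PER69. PER62 went from 24.4 to 34.3 CPM with ABA to 16.7 to 21.6 CPM with both, a fall of 0.63 ± 0.10 on the log2 scale (edgeR adjusted p = 0.000144). PER69 went from 16.4 to 18.5 CPM to 10.9 to 13.2 CPM, a fall of 0.55 ± 0.12 (edgeR adjusted p = 0.0077). Neither pair of groups overlapped, and both calls held in each of the 8 fits that left out 1 library. The median log2 fold change of the members was 0.09, against 0.00 for all genes.

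The comparison of ABA plus glucose with glucose gives the effect of ABA in the presence of glucose. Here 7 of the 16 tested members were called lower and 1 higher, where 5.95% of all tested genes were called lower and 5.82% higher. The median log2 fold change of the members was -0.47, against 0.01 for all genes. PER4 and PER52, both called here, entered the test through the groups where they were high. Of the 12 members with at least 10 counts in every library, 6 were called lower and 0 higher. PER62 fell by 1.14 ± 0.09, PER69 by 1.56 ± 0.11, PER71 by 1.33 ± 0.17, PER46 by 0.86 ± 0.10, PER16 by 0.66 ± 0.13 and PER31 by 0.36 ± 0.07, none with overlapping groups. PER4 was the seventh, with a fitted change of -3.86 ± 0.54 from 15 to 26 counts to 0 to 3, or -1.98 in the limma fit to the per-length signal. PER52 was called higher by 1.2 ± 0.34 (edgeR adjusted p = 0.0207). That call was lost without glucose replicate 1 (log2 1.06, edgeR adjusted p = 0.08) and without ABA plus glucose replicate 1, which had 27 counts (log2 0.84, edgeR adjusted p = 0.11). PER37, which fell with ABA alone, missed the threshold here at -0.57 ± 0.19 (edgeR adjusted p = 0.0509). It was called lower in some of the alternative fits, among them RLE and upper-quartile factors (edgeR adjusted p = 0.0485 and 0.0456). Its interaction was not called (edgeR adjusted p = 0.179).

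The interaction compares the glucose effect with ABA to the glucose effect without it. Of the 16 tested members, 2 were called higher and 0 lower, where 3.23% of all tested genes were called higher and 2.07% lower. Without adjustment, 8 members had p under 0.05 in the edgeR test, and the share of all genes at that threshold is not given. PER63 stood at 8.2 CPM ± 0.284 in control, 5.61 CPM ± 0.91 with glucose, 4.81 CPM ± 1.03 with ABA and 5.84 CPM ± 0.256 with both. It was called lower with each compound alone, and its level with both lay within the range of the glucose libraries, giving an interaction of 0.87 ± 0.20 on the log2 scale (edgeR adjusted p = 0.0127). The estimate may include reads of AT5G40153, which was counted at 0 to 10 per library. AT5G14110 had an interaction of 1.83 ± 0.53 (edgeR adjusted p = 0.0469), on 4 to 21 counts per library, and its call was lost in 12 of the 16 fits that left out 1 library.

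PER62 and PER69 had no called interaction. Their glucose effects with and without ABA differed by 0.15 ± 0.13 and 0.22 ± 0.16 on the log2 scale (edgeR adjusted p = 0.575 and 0.486). PER46, higher with glucose alone, went from 6.98 CPM ± 0.655 with ABA to 7.86 CPM ± 0.246 with both, and its interaction was -0.34 ± 0.14 (edgeR adjusted p = 0.194). PER26, PER16 and PER17 lay near the threshold, with interactions of 1.03 ± 0.31, 0.61 ± 0.19 and 0.41 ± 0.13 (edgeR adjusted p = 0.0572, 0.0565 and 0.0658).

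Of 22 members on a list of genes with a role known from other work, which leaves out PER4, 7 were tested: PER62, PER69, PER17, PER16, PER71, PER37 and PER52. The other 15 were at trace or 0. PER36, which opens the outer wall of the seed coat to release mucilage, had 2 counts over the 16 libraries. PER72 and PER73, of stem lignin and root hairs, had 0 counts in all libraries. PER33, which with PER34 makes the oxidative burst of leaves, had 0 to 1 counts per library, while PER33 and PER34 are 89.6% identical over 1209 bases of transcript.

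Of 10 NADPH oxidases, which supply the oxidant upstream of peroxidases, 5 were tested and 3 had 0 counts in all libraries. With glucose 2 were called higher and 0 lower, beside 3.85% and 7.49% of all genes, and with ABA 1 higher and 1 lower, beside 16.1% and 18%. RBOHD, the most abundant of them by count, had 113 CPM ± 7.70 in control, 138 CPM ± 6.35 with glucose, 83.1 CPM ± 6.15 with ABA and 102 CPM ± 5.02 with both. It rose by 0.28 ± 0.07 with glucose and fell by 0.45 ± 0.07 with ABA, so that its response to glucose alone was opposite in sign to that of PER62 and PER69. RBOHB, an oxidase known from after-ripened seeds, rose by 0.61 ± 0.15 with glucose, by 0.51 ± 0.15 with ABA and by 0.66 ± 0.15 with both. None of the 5 had a called interaction, where 3.23% of all tested genes were called higher and 2.07% lower.

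Of 17 laccases 4 were tested. LAC8 was the most abundant by count, at 238 CPM ± 36.6 in control, 196 CPM ± 13.2 with glucose, 120 CPM ± 22.8 with ABA and 114 CPM ± 13.2 with both. It fell by 0.998 ± 0.12 with ABA (log2, edgeR adjusted p = 3.85e-07), and was not called with glucose. LAC9 changed by -2.12 ± 0.34 with ABA, from 18 to 24 counts in control to 3 to 7. With glucose LAC9 was also called lower, by 1.05 ± 0.30 (log2, edgeR adjusted p = 0.0265) with overlapping groups, and LAC6 rose by 0.71 ± 0.22. LAC9 reached the count filter only through control, the group where it was highest. Control replicate 1 had the lowest LAC8 level of the controls, 185 CPM, where it had the highest PER42 level.

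Of 16 enzymes of monolignol synthesis, which make the phenolic substrates, 13 were tested. With ABA 3 were called higher and 3 lower, beside 16.1% and 18% of all genes. With so few genes, these counts do not set the pathway apart from all genes. FAH1, a hydroxylase of the syringyl branch, rose by 0.74 ± 0.12, and the scarce PAL1 and 4CL3 rose by 1.57 ± 0.41 and 1.56 ± 0.35. PAL1 and 4CL3 reached the count filter only through groups with ABA, so both entered the test through the groups where they were high. PAL1 had 29 counts in control replicate 1 and 2 to 8 in the other controls, so its control and ABA groups overlapped. PAL3 fell by 0.91 ± 0.14, OMT1, a methyltransferase of the same branch, by 0.80 ± 0.08, and CAD4, the last reductase, by 0.53 ± 0.08. With glucose 2 of the 13 were called lower and 0 higher, beside 7.49% and 3.85% of all genes. OMT1 fell by 0.77 ± 0.08 and CAD4 by 0.40 ± 0.08. UPB1, a repressor of peroxidase genes in the root tip, had 0 to 2 counts per library and was not tested.

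Markers of the seed's tissues also moved with the treatments. Of 3 endosperm markers, MAN7, a mannanase, rose by 1.54 ± 0.08 with ABA and by 0.61 ± 0.08 with glucose. EPR1 and MAN5 were not called in any comparison against control, and EPR1 stood at 653 CPM in ABA replicate 3 against 213 to 218 CPM in the other 3 ABA libraries. The summed level of the 3 was 184 to 298 CPM in control, 279 to 362 CPM with glucose, 326 to 786 CPM with ABA and 272 to 427 CPM with both. Of 4 green-tissue markers 2 were tested, RCA and RBCS1A. With ABA RCA was called lower, by 0.67 ± 0.08, and with glucose both were, RCA by 0.40 ± 0.08 and RBCS1A by 0.19 ± 0.06. RHD6, the tested root hair marker, was called lower with ABA plus glucose, by 0.40 ± 0.12, and differed by 0.01 on the log2 scale with ABA alone. The summed root hair markers were 12.9 to 16.4 CPM in control and 12.0 to 18.1 CPM with ABA. Nearly all of that sum was RHD6, with means of 14.5 CPM in control and 14.8 CPM with ABA, so it follows 1 gene. The part of these tissues in the peroxidase changes was not tested.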

How the data were processed

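Messenger RNA was sequenced in paired ends from 16 libraries of whole germinating seeds, 4 in each of 4 groups, with groups and replicate numbers taken from the sample labels. Reads were processed with Trimmomatic 0.38, kallisto 0.44.0 and sleuth, per the submitters' processing notes; the genome build and annotation are not given in the sources used here. The authors deposited estimated counts per gene, of which 4057 genes have decimals, and a per-length signal column headed TPM per the file headers, whose totals of 945626 to 1037285 show a further scaling. The table also holds 16 columns of other samples, which were not used.

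Estimated counts were rounded and fitted with edgeR 4.0.16 in R 4.3.3: TMM factors, filterByExpr (minimum count 10), 1 quasi-likelihood fit of 4 group means to the 16 libraries, and Benjamini-Hochberg adjustment over 17083 genes for each of 6 contrasts. A gene is called at an adjusted p under 0.05. Standard errors are the log2 fold change over the square root of F. Gene values are CPM on TMM-scaled totals. The edgeR, DESeq2 and limma fits were first run on 1 simulated data set with changes in the ABA group only. ABA against control and the interaction were tested there, with limma on scaled counts in place of the per-length signal. The other alternatives were not run on simulated data. Count limits cover counting error only. The members and lists were chosen with earlier results of these data known. Named members are those called with at least a 2-fold change, the 6 with the highest per-length signal, tested members of the role list, and members counted in 1 library; PER63, PER12, PER19 and others at trace levels were named after their values were seen. Names were checked in RefSeq TAIR10.1, and similar transcripts (at least 85% over 100 bases) were found with BLAST 2.17.0. 1 gene of the monolignol list was dropped because its deposited description names another enzyme. Alternatives were RLE and upper-quartile factors, DESeq2 1.42.0, other count filters, limma 3.58.1 on log2 of the per-length signal plus 0.5, a replicate block, fits of the compared groups alone, and each library left out.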

Additional observations from a re-analysis of the deposited data

Results flagged for a closer look

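Among 72 groups of 4 libraries with counts of a named member, 21 held a library far from the other 3. Chance flags about 1 in 20 groups, and a gene counted in 1 library of 4 is always among them. Of these groups, 5 belong to tested members. PER31 stood at 24.5 CPM in ABA plus glucose replicate 1, with 26.4 to 26.5 in the other 3. PER16 stood at 8.46 CPM in control replicate 4, with 12.0 to 12.6 in the others, and at 6.78 CPM in glucose replicate 4, with 8.43 to 8.48 in the others. PER26 stood at 1.2 CPM in glucose replicate 1, with 2.01 to 2.12 in the others. PER4 stood at 2.75 CPM in control replicate 4, with 1.41 to 1.49 in the others.

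The 14 members counted in control replicate 1 alone make up most of the rest, each with 0 CPM in the other 3 control libraries. In that library PER22 had 1.64 CPM, PER39 1.49, PER59 1.2, PER21 1.05 and PER23 0.971 CPM. PER15 and PER49 had 0.598 CPM each, PER25 had 0.448 and PER10 0.374 CPM. PER11, PER27, PER53, PER61 and PER64 had 0.0747 CPM each, the value of 1 count. PER7 had 0.0784 CPM in ABA replicate 4 and PER35 had 0.0675 CPM in ABA plus glucose replicate 4, each also 1 count.

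By the test of the difference itself, glucose acted differently in the presence of ABA on PER63 (0.866 on the log2 scale). The same test called AT5G14110 (1.83 on the log2 scale), but that call was lost in 12 of the 16 fits that left out 1 library, with DESeq2, with no count filter and with a replicate block, and the gene entered the test through control alone.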

How the results depend on the processing

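Over these alternatives, 187 of the recomputed counts of called members stayed within 1.5 times the reported count and 19 did not. With at least 10 counts in every library, the members called higher fell from 1 to 0 with ABA, with ABA plus glucose, and for ABA plus glucose against glucose, since PER52 was no longer tested; PER51, PER4 and AT5G14110 gave no value there either. The interaction was called higher for 2 members in the fit as reported, 5 with upper-quartile factors, 1 with DESeq2, 1 with no filter on low counts, and 1 to 4 when 1 library was left out. With a replicate block it was called for 2, gaining PER16 and losing AT5G14110, and the other counts did not change. Same-numbered libraries deviated together at r of -0.177 to 0.128, so the numbers were not taken to pair the samples. Leaving out 1 library gave 5 to 7 members lower with glucose, 13 to 16 with ABA, 13 to 15 with ABA plus glucose, and 7 to 8 against glucose, where members higher ranged from 0 to 1. The tested members differ between these fits. The 16 with ABA came without control replicate 2, where PER19 and PER30, untested in the reported fit, passed the filter and were called lower. The share of all genes called is given only for the fits without control replicate 1. PER71 with glucose changed sign, at -0.088 to 0.067 on the log2 scale, when 1 library was left out. The causes were not tested. Counts under 10 per library limit PER4, PER51, PER52 and AT5G14110.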
